A study of Homo sapiens with 12 samples.

Results

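The alanine (Ala) and threonine (Thr) four-codon boxes are 8 of the 61 sense codons whose relative ribosome occupancy was measured in human cells with and without THUMPD1. They are defined by the genetic code alone, as every codon that begins with GC or with AC, and the definition uses no measured value. The boxes and the tests were chosen with earlier results of these data known. All 8 had a value in each of the 12 libraries. The cells were HEK293, a human embryonic kidney line that the study's methods name as HEK-293T, either wild type (WT) or carrying a CRISPR-Cas9 knockout (KO) of THUMPD1. Monosome footprints, the pieces of mRNA covered by 1 ribosome, came from 4 WT and 4 KO libraries. Disome footprints, the longer pieces covered by 2 adjacent ribosomes, came from 2 WT and 2 KO libraries. All groups were cultured in serum-supplemented DMEM and lysed with cycloheximide, which holds elongating ribosomes on the mRNA. The KO cells were sorted as single cells after editing, and the labels do not say whether the KO libraries come from 1 clone. The tables list codons and no genes, so these values hold no check of the THUMPD1 deletion itself.

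THUMPD1 is the tRNA-binding partner through which the acetyltransferase NAT10 places acetylcytidine in the D-arm of serine and leucine tRNAs. Ala and Thr tRNAs are not among these known targets. The codons of each box differ only in the third base. In human cells U-ending and C-ending Ala and Thr codons are read by 1 tRNA whose anticodon begins with inosine, a base made from adenosine that pairs with U and C and less well with A. A-ending codons are read by a tRNA whose anticodon begins with a modified U, and G-ending codons also by one that begins with C. The occupancy of a codon is the density of ribosome footprints that have it at the decoding site, over a baseline of the same library, so a higher value is read in the field as a longer stay of the ribosome. The study places the value at the A site, for disomes that of the ribosome in front, and the exact baseline is not stated.

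The 8 codons are shown 5′ to 3′ because every comparison turns on the third base, which is in capitals.
Ala codon ending in U: gcU
Ala codon ending in C: gcC
Ala codon ending in A: gcA
Ala codon ending in G: gcG
Thr codon ending in U: acU
Thr codon ending in C: acC
Thr codon ending in A: acA
Thr codon ending in G: acG

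The RefSeq gene table of assembly GRCh38.p14 names 33 Ala and 20 Thr tRNA genes by anticodon. For Ala, 20 carry the anticodon AGC complementary to GCU, 8 carry UGC for GCA and 5 carry CGC for GCG. For Thr, 9 carry AGU for ACU, 6 carry UGU for ACA and 5 carry CGU for ACG. The table names no Ala gene with GGC and no Thr gene with GGU, the anticodons complementary to the C-ending codons. The C-ending codons are nevertheless the most used of their boxes: among 19749 canonical coding transcripts of GENCODE release 44, GCC made up 28.0 and ACC 18.4 of every 1000 sense codons. The G-ending codons were the least used, at 7.65 per 1000 for GCG and 5.93 for ACG.

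Mean occupancy over the 61 codons lay between 0.981 and 1.00 in the monosome libraries and between 0.949 and 0.962 in the disome libraries. No value was 0. No read totals come with the tables, depth is therefore unknown, and the spread between libraries is the only error available. The study calls the libraries biological replicates. The labels do not tie them to separate cultures, so p-values measure the spread between these libraries, which may be technical. The monosome libraries of replicate 2 stood apart in base composition: log2 occupancy increased by 0.092 in WT and 0.072 in KO for each G or C base in the codon, against slopes from -0.053 to 0.0078 in the other monosome libraries. Among disomes, WT replicate 2 had a slope of 0.083 and the others 0.0052 to 0.024.

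Within monosomes the 8 codons spread over a narrow range around the average of all codons, with the G-ending codon highest and ACC lowest. Their median occupancy, taken over geometric means of the 8 libraries, was 0.905, against 0.916 for all 61 codons. GCG had the highest mean at 1.07, followed by ACG at 1.04, GCC at 0.947, GCU at 0.916, ACA at 0.894, GCA at 0.881, ACU at 0.863 and ACC at 0.774. ACC ranked 55 of 61 by arithmetic mean and lay between ranks 49 and 56 in every monosome library. Few neighbours in this order could be told apart within libraries. ACU exceeded ACC in 8 of 8 libraries, ACG exceeded GCC in 7 of 8 and GCA exceeded ACU in 7 of 8, while the remaining neighbours kept their order in only 3 to 5 of 8 libraries.

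**Figure D1:**
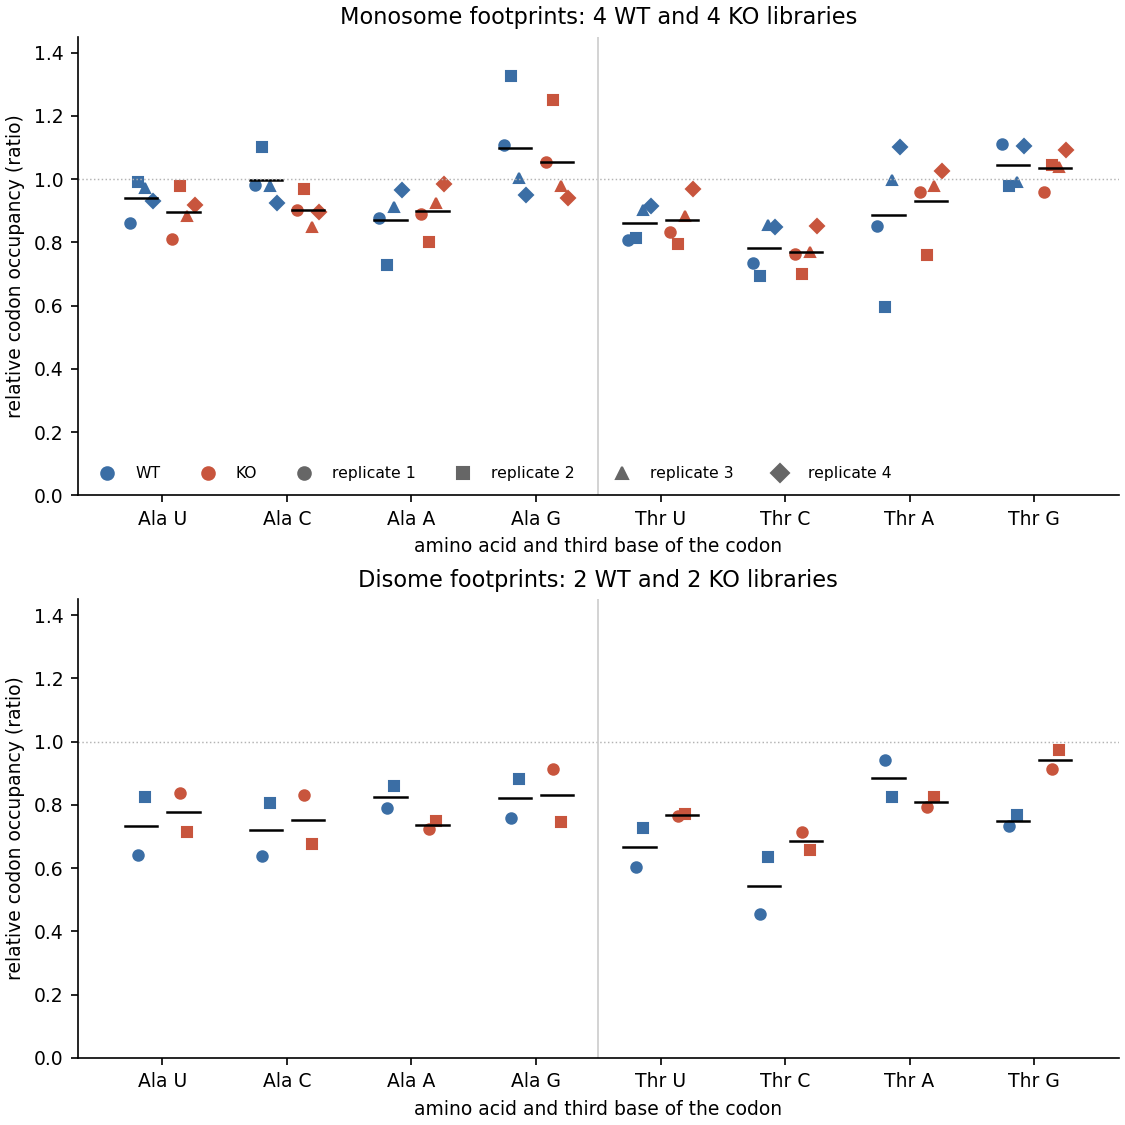
Relative occupancy (no unit, axis from 0) of each Ala and Thr codon, named by amino acid and the third base, in every WT and KO library, for monosomes and disomes. Thr C is the lowest of the 8 in both footprint kinds, with geometric means over libraries of 0.774 in monosomes and 0.606 in disomes.

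The pyrimidine-ending Thr codons, which share the inosine tRNA, had unequal occupancy. ACU was 0.808, 0.815, 0.902 and 0.916 in WT monosome replicates 1 to 4 and 0.833, 0.794, 0.883 and 0.969 in KO replicates 1 to 4. ACC was 0.736, 0.694, 0.854 and 0.847 in WT and 0.762, 0.698, 0.768 and 0.851 in KO. ACU was thus above ACC in each library of both genotypes. The within-library log2 difference averaged 0.16 (SE 0.03, adjusted p = 0.000288, limma over all 37 third-base contrasts of the code), or 1.12-fold. This was the second highest, at rank 2, of the 16 differences between a U-ending and a C-ending codon, of which 4 (25.0%) passed the test above 0. The Ala pair did not follow: GCU minus GCC averaged -0.05 (SE 0.03, adjusted p = 0.235, limma) and was above 0 in 4 of 8 libraries. The other 14 pairs had a median of -0.03 and ran from -0.29 for Asp to 0.18 for Cys.

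The Thr pyrimidine codons together lay below the Thr purine codons. The mean log2 occupancy of ACU and ACC minus that of ACA and ACG was -0.33, -0.02, -0.18 and -0.32 in WT replicates 1 to 4 and -0.27, -0.26, -0.29 and -0.22 in KO. The difference was below 0 in 8 of 8 libraries, with a mean of -0.24 (SE 0.04, adjusted p = 0.000217, limma), a ratio of 0.848. Of the 8 four-codon boxes, 5 (62.5%) passed below 0, and Thr ranked 7, with only Arg lower at -0.31. For Ala the same difference was small: -0.06 (SE 0.03, adjusted p = 0.0998, limma), below 0 in 6 of 8 libraries. It passed on the linear scale (adjusted p = 0.0286) and with the replicate number as a block (adjusted p = 0.0353), a fit that leaves the spread between numbers out of the error. The blocked call was lost without replicate 1 (-0.03, adjusted p = 0.402) or 4 (-0.06, adjusted p = 0.154), and with each number counted once the difference did not pass (adjusted p = 0.209). Ala had the value nearest to 0 of the 8 boxes.

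The A-ending codon lay below the G-ending codon on average in both boxes, by an amount that differed strongly between replicate numbers, and neither difference passed with each number counted once. GCA was 0.878, 0.727, 0.912 and 0.965 in WT monosome replicates 1 to 4 and 0.891, 0.801, 0.924 and 0.984 in KO. GCG was 1.11, 1.33, 1.00 and 0.950 in WT and 1.05, 1.25, 0.977 and 0.940 in KO. The gap was widest in replicate 2 and had closed or turned in replicate 4. GCA minus GCG averaged -0.28 on the log2 scale (SE 0.10, adjusted p = 0.0295, limma), below 0 in 6 of 8 libraries and reaching from -0.87 to 0.07. This fit counts the 8 libraries as independent. Averaged over WT and KO, the differences were -0.29, -0.75, -0.11 and 0.04 for numbers 1 to 4, and over these 4 means the SE was 0.12 and the test was not passed (adjusted p = 0.0869, limma).

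In Thr the A-ending codon also lay below the G-ending codon on average, most in replicate 2 and in WT replicate 1. ACA was 0.851, 0.596, 0.997 and 1.10 in WT replicates 1 to 4 and 0.958, 0.760, 0.979 and 1.02 in KO. ACG was steadier, at 1.11, 0.977, 0.992 and 1.10 in WT and 0.960, 1.04, 1.04 and 1.09 in KO. Their difference averaged -0.22 over the 8 libraries (SE 0.08, adjusted p = 0.0361, limma), below 0 in 7 of 8. Its means by number were -0.19, -0.59, -0.04 and -0.05, and over these the test was not passed (SE 0.09, adjusted p = 0.0823, limma). Of the 13 A minus G contrasts in the code, 5 (38.5%) passed below 0, both members among them. The other 11 had a median of 0.12 and ran from -0.56 for the Ser four-codon box to 0.84 for Glu.

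In all, 4 of the 6 Ala and Thr contrasts passed over the 8 monosome libraries, against 23 of all 37 (62.2%), and 5 of 6 with the replicate block, against 67.6%. With each replicate number counted once, 2 of 6 passed, against 51.4%. These were Thr U minus C (SE 0.03, adjusted p = 0.00469) and Thr pyrimidine minus purine (SE 0.04, adjusted p = 0.00255). Both also held without any single library and without both libraries of any replicate number. The A minus G calls over 8 libraries were lost in several of these fits with values that moved little. Without WT replicate 1 the difference was -0.28 for Ala (adjusted p = 0.0612) and -0.20 for Thr (adjusted p = 0.0883), and without KO replicate 1 it was -0.27 for Ala (adjusted p = 0.0635). Without KO replicate 3 it was -0.23 for Thr (adjusted p = 0.0534). Without both libraries of replicate 1 the values were -0.27 for Ala and -0.22 for Thr (adjusted p = 0.125 and 0.111, or 7.25e-06 and 0.000173 with the block), and without both of replicate 3 Ala was -0.33 (adjusted p = 0.0542). Replicate 2 moved the size itself. Without its WT library Thr was -0.14 (adjusted p = 0.0615). Without its KO library Ala was -0.21 and Thr -0.17 (adjusted p = 0.0650 and 0.0803). Without both, Ala was -0.12 and Thr -0.09 (adjusted p = 0.00526 and 0.0291, limma, and 0.127 for Thr with the block). The unblocked fit without both gave the 2 differences the same SE, 0.039, pooled over contrasts. Its p-values therefore do not measure the spread of either difference. In the remaining libraries Ala ran from -0.34 to 0.07.

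**Figure D2:**
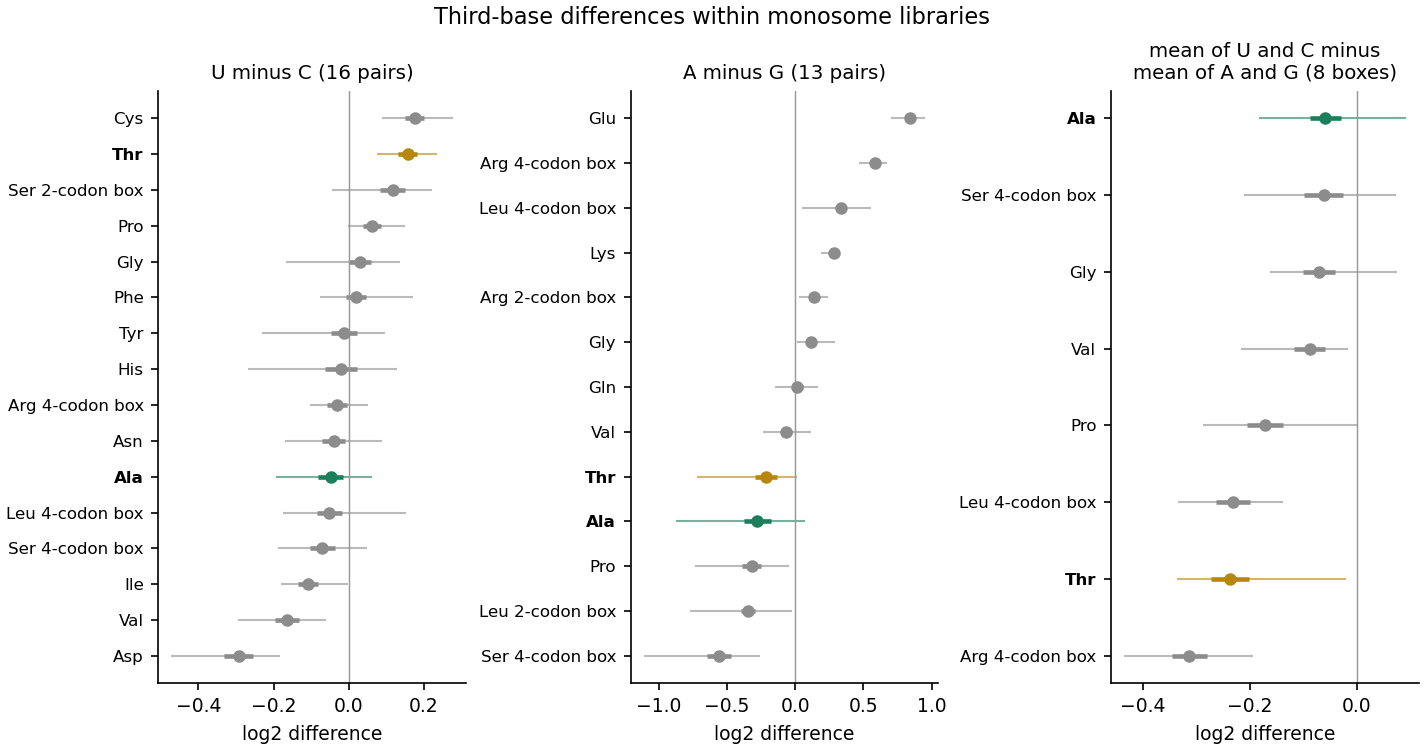
Within-library log2 differences between codons that differ in the third base, for each box of the code in monosomes, with Ala and Thr marked: dot, mean of both genotypes; thick bar, SE; thin line, range over the 8 libraries. Thr lies near the top for U minus C (0.16) and near the bottom for pyrimidine minus purine (-0.24), and the A minus G ranges of both boxes are long.

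The replicate number carried more of the variation of all 8 codons in monosomes than the genotype did, as it did for 52 of all 61 codons. Of the variance of log2 occupancy over the 8 libraries, the number accounted for 97.0% in GCG, 92.7% in GCA, 92.6% in ACU, 87.9% in ACC, 86.0% in ACA, 80.8% in GCU, 48.4% in GCC and 39.3% in ACG. Over all 61 codons the median was 69.7% for the number and 4.42% for the genotype. The number has 3 of the 7 degrees of freedom, which is 42.9% of them. The genotype has fewer, so the shares are not like for like. The number share of ACG, 39.3%, lay below 42.9%, and that of GCC, 48.4%, little above it. GCC was the member with the largest genotype share, at 43.1%, and in ACG 59.7% lay outside both. ACA, whose complementary anticodon is UGU, was the most variable of the 61 codons in monosomes, with an SD of log2 occupancy of 0.289 against a median of 0.102 and a highest value 1.85-fold above the lowest. GCG ranked 8 by this SD, at 0.185.

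GCG and ACA lay at opposite ends in replicate 2. Its libraries held the highest GCG values, 1.33 in WT and 1.25 in KO, and the lowest ACA values, 0.596 and 0.760. These libraries also had the steepest slope on G and C bases. With that slope removed from each library, the SD was 0.123 for GCG and 0.0621 for GCC, which had 0.114 before, while for ACA it was 0.265. For GCU it was 0.0848, from 0.102, and for ACU 0.0900, from 0.102. For GCA, ACC and ACG it was larger after the correction than before, at 0.166, 0.140 and 0.0921 against 0.144, 0.124 and 0.0822. What the replicate number stands for is not given in the labels.

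**Figure D3:**
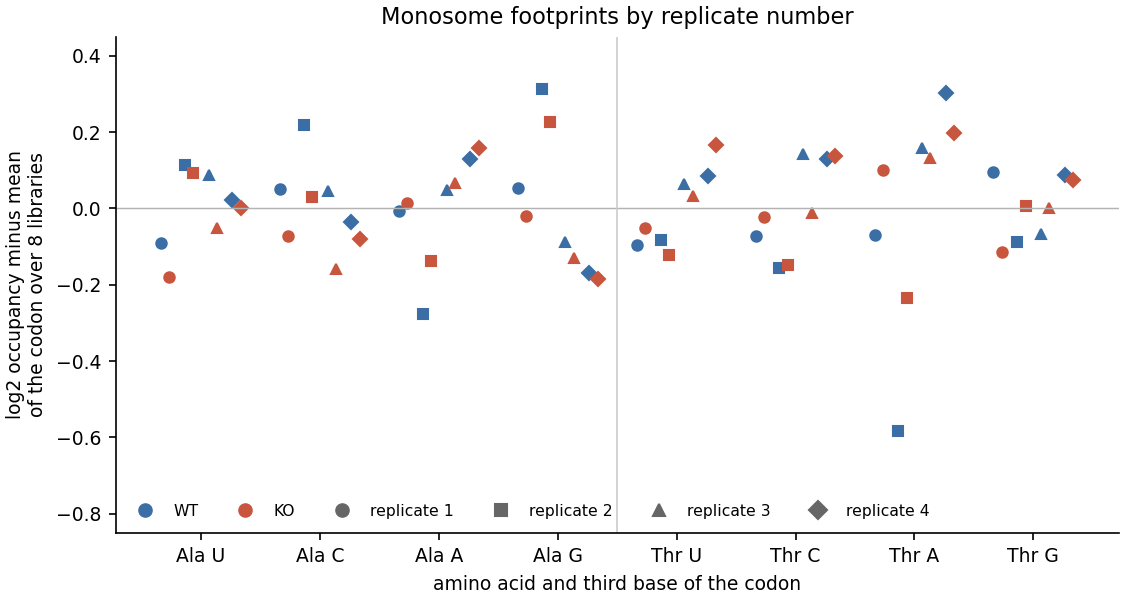
Log2 occupancy of each Ala and Thr codon in the monosome libraries, as the deviation from its mean over the 8 libraries, against replicate number, for WT and KO. Replicate 2 is high for Ala G and low for Ala A and Thr A in both genotypes. WT and KO of a number lie up to 0.35 apart, for Thr A in replicate 2.

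Between WT and KO monosomes none of the 8 codons passed the test. Differences on the log2 scale ran from -0.14 for GCC to 0.10 for ACA, with a median of -0.02 beside -0.00 for all 61 codons. In limma with adjustment over all 61 codons, 0 of 8 members and 4 of 61 codons (6.56%) passed, all 4 of them leucine codons that were higher in KO. At an unadjusted p under 0.05 it was 0 of 8, against 13.1%, and the exact permutation test over libraries passed 0 of 61 after adjustment, which its smallest p of 0.0286 allows only where most codons separate fully. The genotypes overlapped for all 8, whereas 6 of 61 codons (9.84%) did not overlap.

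GCC, the most used Ala codon, was the member nearest to a difference. It was 0.982, 1.10, 0.977 and 0.925 in WT replicates 1 to 4 and 0.902, 0.968, 0.848 and 0.896 in KO, so the KO library was the lower of each pair with the same number. The means were 0.996 ± 0.0747 in WT and 0.903 ± 0.0491 in KO (SD, n = 4 each). The log2 difference was -0.14 (SE 0.07, adjusted p = 0.368, limma; unadjusted exact permutation p = 0.0571, two-sided).

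Same-numbered WT and KO libraries varied together, although numbers 3 and 4 could not be told apart by this. With the number as a block the SE of the GCC difference was 0.04 and it passed (adjusted p = 0.0292, limma). The blocked fit called 8 of 61 codons (13.1%), 3 of them lower in KO (4.92%), and GCC was the only member. The call was lost with base composition removed (-0.10, adjusted p = 0.108). With 3 pairs in place of 4 the value stayed of similar size. It was -0.15 without replicate 1 (adjusted p = 0.0709), -0.12 without replicate 2 (adjusted p = 0.165), -0.12 without replicate 3 (adjusted p = 0.0664) and -0.17 without replicate 4, where it passed (adjusted p = 0.0416). Without replicate 1 or 3 the fit gave every member the same SE, so these p-values use a spread pooled over codons. The synonymous GCU, read by the same tRNA, differed by -0.07 (SE 0.07, 95% interval -0.22 to 0.09; blocked adjusted p = 0.289).

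Among the other Ala codons the signs were steady and the sizes small. GCG was lower in KO in 4 of 4 pairs, by a log2 difference of -0.05 (SE 0.12, 95% interval -0.31 to 0.21). GCA was higher in KO in 4 of 4 pairs, by 0.05 (SE 0.09, interval -0.16 to 0.26). GCU too was lower in KO in every pair. In all, 4 of 8 members kept 1 direction in all 4 pairs, against 34.4% of the 61 codons. Of these, 3 were lower in KO, against 21.3%, and 1 was higher, against 13.1%.

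The Thr codons showed no steady direction over the pairs. ACU differed by 0.01 (SE 0.07), ACC by -0.02 (SE 0.08), although ACC was higher in KO in 3 of 4 pairs, and ACG by -0.02 (SE 0.06). With the block the 95% intervals were -0.07 to 0.10 for ACU, -0.11 to 0.07 for ACC and -0.12 to 0.09 for ACG. ACA differed by 0.10 with an interval of -0.29 to 0.49, or -0.04 to 0.23 with the block, and was higher in KO in 2 of 4 pairs. Without both libraries of replicate 3 the blocked ACA value was 0.14 (adjusted p = 0.0261, limma). That fit gave every member the same SE, 0.048, pooled over codons, so its p-value does not measure the spread of ACA itself. The remaining ACA pair differences were 0.17, 0.35 and -0.10 for numbers 1, 2 and 4. The mean log2 difference of the box was -0.05 for Ala and 0.02 for Thr.

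For none of the 6 third-base differences did a change with the genotype pass in monosomes. In limma 0 of 6 members and 0 of 37 contrasts (0.00%) passed for KO minus WT, and with the block 0 of 6 against 5.41%. At an unadjusted p under 0.05 it was 0 of 6, against 5.41%. The exact permutation test gave 0 of 37, with the same limit. The Thr U minus C difference was 0.14 ± 0.07 in WT and 0.18 ± 0.03 in KO (SD, n = 4 each).

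In disomes 6 of the 8 codons lay below the median codon by arithmetic mean, and ACA and ACG stood at ranks 30 and 31 of 61. The median occupancy of the 8 was 0.764, against 0.841 over all 61 codons. By geometric mean over the 4 libraries, ACA stood highest at 0.845, then ACG at 0.841, GCG at 0.822, GCA at 0.779, GCU at 0.750, GCC at 0.732, ACU at 0.714 and ACC at 0.606. ACC ranked 59 of 61 by arithmetic mean. Only GCU above GCC and ACU above ACC held in 4 of 4 libraries among neighbours in this order.

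ACC lay low in the disome table, between ranks 51 and 61 in its libraries. It was 0.455 and 0.634 in WT disome replicates 1 and 2 and 0.714 and 0.657 in KO. The value in WT replicate 1 was the lowest of all 61 codons in that library. ACU was 0.605 and 0.728 in WT and 0.765 and 0.770 in KO, above ACC in each library. The U minus C difference averaged 0.23 (SE 0.08, adjusted p = 0.0783, limma), the second highest of the 16 as in monosomes, and did not pass.

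The disome Thr pyrimidine codons lay below the purine codons as well. The difference was -0.66 and -0.23 in WT and -0.20 and -0.33 in KO, below 0 in 4 of 4 libraries, with a mean of -0.36 (SE 0.10, adjusted p = 0.0237, limma). This was the only 1 of 6 member contrasts to pass, against 8 of 37 (21.6%), and 2 of the 8 four-codon boxes (25.0%) passed below 0. The call was lost without WT replicate 1 (-0.25, adjusted p = 0.245) or KO replicate 2 (-0.33, adjusted p = 0.0888). At an unadjusted p under 0.05, 2 of 6 members passed, against 32.4%. The Ala contrasts were -0.11 for pyrimidine minus purine, 0.03 for U minus C and -0.08 for A minus G, none of which passed (adjusted p = 0.351, 0.745 and 0.571, limma).

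Between WT and KO disomes no codon of the 61 passed limma with adjustment (0.00%), and so 0 of 8 members did. The exact permutation test could pass none, since with 2 libraries against 2 it cannot go below p = 0.333. At an unadjusted p under 0.05 limma called 1 of 8 members, ACG, against 16.4% of all codons. ACG was 0.732 and 0.767 in WT and 0.913 and 0.973 in KO, so both KO libraries lay above both WT libraries. The log2 difference was 0.33 (SE 0.10, 95% interval 0.08 to 0.58, adjusted p = 0.264, limma).

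For the Thr U-ending and C-ending codons too, both KO disome libraries lay above both WT libraries, as was the case for 29.5% of all codons. ACU differed by 0.21 (SE 0.12) and ACC by 0.35 (SE 0.17, adjusted p = 0.382, limma). The size of the ACC difference depended on WT replicate 1, which held the lowest value. Without WT replicate 2 ACC was 0.59 higher in KO, and without WT replicate 1 it was 0.11 higher. Each of these fits leaves a lone WT library and uses a spread pooled over codons. ACA, with 0.943 and 0.825 in WT and 0.794 and 0.825 in KO, differed by -0.12 (SE 0.11). The genotypes did not overlap for 4 of 8 members, against 52.5% of all codons. Of these, 3 Thr codons were higher in KO, against 29.5%, and GCA was lower, against 23.0%.

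The WT and KO disome values of the U-, C- and G-ending Ala codons overlapped. GCU was 0.643 and 0.824 in WT and 0.839 and 0.714 in KO. GCC was 0.638 and 0.806 in WT and 0.831 and 0.675 in KO, and GCG was 0.759 and 0.881 in WT and 0.912 and 0.747 in KO. All 3 were low in WT replicate 1 and KO replicate 2 and high in WT replicate 2 and KO replicate 1. Their mean differences, 0.09 for GCU, 0.06 for GCC and 0.01 for GCG, had SEs of 0.14 to 0.16 and changed sign when libraries were centred on their median (-0.01, -0.03 and -0.08). Neither the genotype nor the replicate number held their variation: 88.1% of the variance of GCU, 95.9% of GCC and 97.6% of GCG lay outside both. GCA stood apart from its box, at 0.791 and 0.859 in WT and 0.723 and 0.749 in KO, lower in both KO libraries (-0.16, SE 0.10, adjusted p = 0.435, limma). The mean log2 difference of the box was 0.00 for Ala and 0.19 for Thr in disomes.

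**Figure D4:**
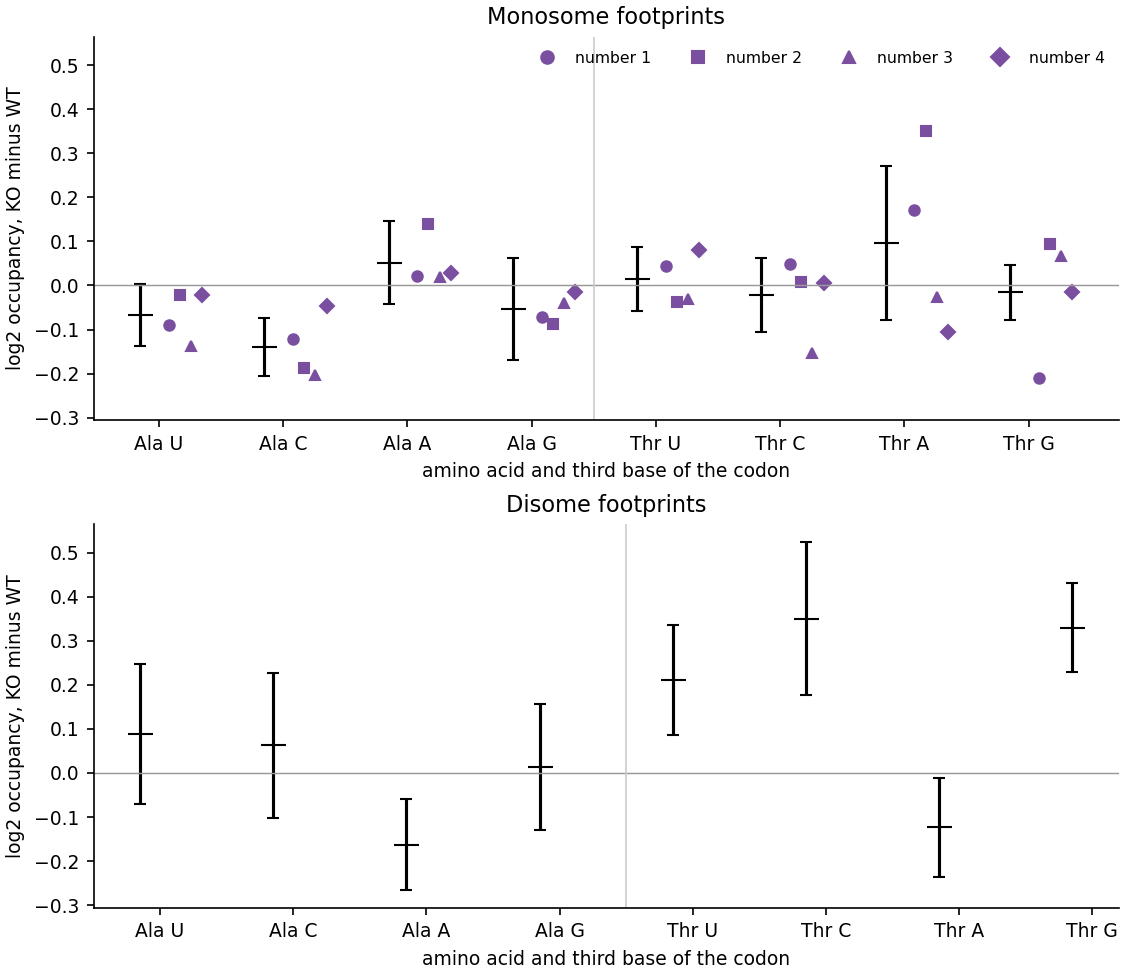
KO minus WT difference in log2 occupancy of each Ala and Thr codon in monosomes and disomes: dash and bar, limma mean and SE; points, differences between monosome libraries of the same replicate number (disome numbers did not pair and have no points). Monosome means lie between -0.14 and 0.10, and disome means between -0.16 and 0.35 with wider bars.

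The Thr A minus G difference in disomes had opposite signs in the genotypes. It was 0.36 and 0.10 in WT and -0.20 and -0.24 in KO, so ACA lay above ACG in both WT libraries and below it in both KO libraries. The change of this difference was -0.45 (SE 0.17, unadjusted p = 0.0255, adjusted p = 0.314, limma) and did not pass. It was the only 1 of 6 members with an unadjusted p under 0.05, against 8.11% of the 37 contrasts. After adjustment 0 of 6 and 0 of 37 (0.00%) passed. In monosomes the change of the same difference was 0.11 (SE 0.16). How many of the 37 disome contrasts had opposite signs in the genotypes was not counted.

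The footprint kinds sit in separate tables that may have been scaled apart, so levels are set side by side without a test. Both tables placed ACC at the bottom of the 8 codons and ACU above ACC in every library, 8 of 8 for monosomes and 4 of 4 for disomes. Ala exceeded Thr for the C-ending codons in 8 of 8 monosome libraries, with a mean log2 difference of 0.29, and in 4 of 4 disome libraries, with 0.27. For U-ending codons the difference was 0.09 in monosomes (6 of 8 libraries) and 0.07 in disomes (3 of 4). For A-ending codons it was -0.02 (3 of 8) and -0.12 (1 of 4), and for G-ending codons 0.04 (4 of 8) and -0.03 (2 of 4). The separation of the boxes was thus steady only for the C-ending codons.

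Among the other codon families that are read through inosine, the genotype counts were 0 for Pro, Val, Ser UCN, Arg CGN and the 3 Ile codons in monosomes, as for Ala and Thr, and also 0 for Gly, a four-codon box read without inosine. The exception was Leu CUN, with 3 of 4 codons higher in KO and a median difference of 0.29. With the replicate block Leu CUN had 4 and Ala 1, the lower GCC, and the others stayed at 0. In disomes no family had a codon past the test. The median disome difference was 0.27 for the Thr box and 0.04 for the Ala box, beside values from -0.28 for Gly to 0.30 for Leu CUN, without a test between families.

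The codons outside both boxes with the most similar values were found by the root mean square of the log2 difference from the box mean. Over the 8 monosome libraries the Ala box was nearest to CCU (Pro, 0.0480), UCU (Ser, 0.0747) and AGA (Arg, 0.0756). The Thr box was nearest to AAU (Asn, 0.0655), AUG (Met, 0.0743) and AAC (Asn, 0.0884). Over the 4 disome libraries the nearest to Ala were AGG (Arg, 0.0764), AAU (Asn, 0.118) and UUU (Phe, 0.139), and the nearest to Thr were UCC (Ser, 0.0480), CAG (Gln, 0.0823) and AGG (Arg, 0.116). No neighbour of the Ala box was shared between the footprint kinds, nor any of the Thr box.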

How the data were processed

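Per the study's methods, the authors trimmed adapters, removed ribosomal and noncoding RNA reads with STAR, mapped the rest uniquely to canonical hg19 transcripts and computed codon occupancy with their own code. The deposited values are ratios, the occupancy of each of the 61 codons over a baseline of its library, with no pooling. The denominator and a coverage minimum are not given in the sources used here. Values were tested on the log2 scale without pseudocount in limma 3.58.1 (R 4.3.3), KO against WT, separately for monosomes and disomes, with Benjamini-Hochberg adjustment over all 61 codons and a threshold of 0.05. Within-library third-base contrasts (16 U minus C, 13 A minus G, 8 pyrimidine minus purine) were tested likewise over all 37. Monosome replicate numbers were taken as pairing the libraries. Deviations of same-numbered WT and KO libraries correlated over the 61 codons at 0.669, 0.872, 0.534 and 0.686 for numbers 1 to 4. However, WT 3 correlated more with KO 4 (0.776), and WT 4 about as much with KO 3 (0.683) as with KO 4. The correlations thus do not tell numbers 3 and 4 apart, and there the pairing rests on the labels. The 2 disome numbers did not pair. Monosome contrasts were also tested with WT and KO of each number averaged. Scripts were tested on simulated data. Alternatives covered scaling, prior, block and left-out libraries. Centring, base composition and filter were varied only for the KO against WT codon tests. The third-base contrasts were therefore not checked against base composition. The 8 codons are the named items. Members, lists and tests were chosen with earlier results of these data known. tRNA gene names came from RefSeq and codon usage from GENCODE, both on a build other than hg19, so no coordinates or tRNA sequences are given.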

Additional observations from a re-analysis of the deposited data

Results flagged for a closer look

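GCA was flagged because its KO minus WT difference had opposite signs in the footprint kinds. It was positive in all 4 monosome pairs (mean 0.052 on the log2 scale) and negative for each KO against each WT disome library (mean -0.16). The kinds sit in separate tables, so this difference was not tested, and GCA passed in neither kind. Only the 8 members were searched for this pattern, and how many of the 61 codons show it was not counted. Of all 61 codons, 13.1% were higher in KO in all 4 monosome pairs. In disomes 23.0% were lower in KO without overlap.

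The Thr A minus G difference in disomes was flagged because both WT libraries had ACA above ACG and both KO libraries had it below. The change was -0.45 (unadjusted p = 0.0255, adjusted p = 0.314, limma). It was also -0.45 with the replicate block (adjusted p = 0.333), and lay between -0.58 and -0.32 when any of the 4 disome libraries was left out. Only the 6 member contrasts were searched for such a change of sign, and its share over all 37 was not counted. Some changes outside the members were larger, at 0.75 for Ser four-codon A minus G and 0.47 for Arg four-codon pyrimidine minus purine.

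No monosome library was an outlier by Dixon's test in any of 28 groups of 4, where about 1.4 would be by chance. Disome groups hold 2 libraries and were not tested.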

How the results depend on the processing

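In monosomes 8 of 61 codons passed with the replicate block (1 of 8 members, GCC), 10 with the block after base composition correction (0 members) and 0 by exact permutation, against 4. Leaving out a library or both libraries of a number gave 2 to 4 codons without the block and 0 members, and 5 to 10 codons with it, 7 without number 1, and 0 to 1 members. Monosome contrasts passed for 2 members with a trended robust prior, 2 to 5 with libraries left out, 4 to 6 with the block as well and 2 with WT and KO of each number averaged, against 4. KO minus WT contrasts passed for 2 of 37 with the block, 1 with that prior and 0 to 2 with libraries left out, against 0, never for a member.

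In disomes the replicate numbers did not pair (r = 0.0212), and the block left 0 codons called. 1 codon passed on the linear scale, 4 with the trended prior and 0 to 3 with a library left out (0 to 1 members). Disome contrasts passed for 2 members with that prior, where Thr U minus C had adjusted p = 0.00205, and for 0 to 1 with a library left out, of 5 to 9 in all. KO minus WT disome contrasts passed for 1 of 37 with that prior, 1 with each kind fitted alone and 0 to 1 with a library left out.

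Small values turned sign. Monosome ACU was -0.00095 when centred on the 53 other codons and -0.0023 after base composition correction, with or without the block. Disome GCU was -0.0063 after median centring and -0.045 after quantile normalization. For GCC these were -0.032 and -0.064, with -0.017 at equal spread. For GCG they were -0.081 and -0.089, with -0.036 at equal spread and -0.014 when centred on the 53 codons. Disome Thr A minus G was -0.015 at equal spread. None of these passed.

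With libraries left out, several differences with no call crossed 0. The monosome KO minus WT difference ran from -0.032 to 0.11 for GCA, -0.14 to 0.042 for GCG, -0.039 to 0.057 for ACU, -0.078 to 0.023 for ACC, -0.081 to 0.21 for ACA and -0.053 to 0.049 for ACG. With the block and both libraries of a number left out, the crossing values were 0.049 for ACG, 0.021 for ACC and -0.0081 for ACU. Disome KO minus WT ran from -0.091 to 0.27 for GCU, -0.11 to 0.23 for GCC and -0.13 to 0.16 for GCG. The KO minus WT change of the monosome contrasts ran from -0.034 to 0.21 for Thr A minus G, -0.094 to 0.020 for Thr pyrimidine minus purine (0.019 with the block) and -0.074 to 0.24 for Ala A minus G. In disomes it ran from -0.041 to 0.40 for Thr pyrimidine minus purine and -0.0087 to 0.060 for Ala U minus C. The disome contrasts themselves ran from -0.057 to 0.073 for Thr A minus G and -0.16 to 0.0077 for Ala A minus G.

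The monosome A minus G calls were also lost with the trended prior (adjusted p = 0.0727 for Ala and 0.0798 for Thr). The causes were not tested. Leaving out both libraries of a number and averaging by number were chosen after seeing the data. The unknown depth, and 2 libraries a group in disomes, limit what these comparisons can show.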
